A study of Mus musculus with 21 samples.

Results

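The gene set described here holds 7 genes of the creatine kinase and adenylate kinase systems: Ckm, Ckmt2, Ckb, Slc6a8, Gatm, Gamt and Ak1. They were chosen by name, with earlier results of these data known. Every probe set annotated to them was taken, which gave 10 of the 45101 probe sets on the array. Expression was measured in 21 mouse heart samples on Affymetrix mouse arrays. Biotin-labelled material prepared from total RNA is hybridized there to short probes, and each set of probes gives 1 level. Of these, 10 came from wild-type mice, 4 after a sham operation and 6 after TAC, and 11 from G4D mice, 5 after sham and 6 after TAC. G4D mice carry a targeted deletion allele of Gata4, a cardiac transcription factor, beside a normal allele, and are described as expressing less Gata4. TAC is transverse aortic constriction, a ligature around the aortic arch that makes the left ventricle pump against a raised pressure, and the sham operation left the aorta alone. Wild-type sham mice carried neither the allele nor the constriction. The strain, sex, age and time after surgery were not given in the sources used here. The source was labelled as cardiac myocytes, without a statement of whether cells or tissue were used. No source states that the arrays of a group came from separate animals. The p-values below set group differences against the spread between these samples, which may in part be technical.

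Heart muscle uses ATP at a high rate and keeps little of it, and creatine kinase buffers it by moving phosphate between ATP and creatine. The mitochondrial enzyme, Ckmt2, loads phosphate onto creatine beside the ATP exporter of the inner membrane, and the cytosolic enzymes, built from the muscle subunit Ckm and the brain subunit Ckb, give it back to ADP near myosin and the ion pumps. The brain subunit is the main form in the fetal heart and in smooth muscle, nerve and endothelium, and the muscle subunit takes over in the myocyte as the heart matures. The heart takes creatine from the blood through the transporter Slc6a8, after Gatm and Gamt make it, mainly in kidney and liver. Adenylate kinase 1, Ak1, joins 2 ADP into ATP and AMP.

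The promoters of the 3 creatine kinase genes are shown because Ckb rose with TAC in G4D hearts while no change was called for Ckm or Ckmt2. Each is the 250 bases before the start site, 5′ to 3′ on the gene's strand, from RefSeq on GRCm38.p6. They lie at chr7:19410844-19411093 (plus strand, Ckm), chr13:91876886-91877135 (minus strand, Ckmt2) and chr12:111672339-111672588 (minus strand, Ckb). Capitals mark matches to the motifs named after them.
Ckm: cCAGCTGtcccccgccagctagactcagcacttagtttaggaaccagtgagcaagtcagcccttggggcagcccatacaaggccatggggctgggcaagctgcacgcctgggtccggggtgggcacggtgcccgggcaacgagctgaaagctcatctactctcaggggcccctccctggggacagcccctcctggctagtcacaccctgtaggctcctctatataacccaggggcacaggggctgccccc
Ckmt2: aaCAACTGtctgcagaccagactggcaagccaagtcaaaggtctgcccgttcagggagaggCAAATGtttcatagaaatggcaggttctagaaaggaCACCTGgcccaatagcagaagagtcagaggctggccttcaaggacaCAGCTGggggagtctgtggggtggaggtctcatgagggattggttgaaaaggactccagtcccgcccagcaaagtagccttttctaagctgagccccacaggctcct
Ckb: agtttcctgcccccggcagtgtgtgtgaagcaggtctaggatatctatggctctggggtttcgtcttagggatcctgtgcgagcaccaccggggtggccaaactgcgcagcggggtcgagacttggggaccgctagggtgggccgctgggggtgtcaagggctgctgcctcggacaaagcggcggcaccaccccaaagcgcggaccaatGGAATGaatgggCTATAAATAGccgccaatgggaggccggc
Both strands were searched for sites of GATA factors written as AGATAA or as TGATAA. The E-box was searched as CANNTG and the box at which transcription is often set up as TATAAA. The core site of the estrogen-related receptors was searched as AAGGTCA and the MCAT element as CATTCC. The MEF2 and CArG motifs, which allow several letters at some positions, were also searched. The Ckm window held 1 E-box, CAGCTG, from 249 to 244 bases before the start, and the Ckmt2 window held 4. An E-box lay in 66.2% of all 32841 mouse promoter windows of this length. The Ckb window held no E-box. It held a MEF2 match from 29 to 20 bases before the start, which occurred in 2.92% of all windows. The same stretch overlaps the TATAAA match, from 28 to 23 bases before the start (12.4% of windows). A MCAT match lay on the minus strand, from 41 to 36 bases before the start (12.6% of windows). Of the other members, promoters of Gatm, Gamt and Ak1 were in the table. The Gatm window held 1 E-box and the Gamt window no match. Each of the 4 Ak1 start sites had an E-box, and the third also had AAGGTCA, from 90 to 84 bases before the start (4.08% of windows). AGATAA, in 9.99% of all windows, TGATAA, in 7.94%, and the CArG motif, in 1.47%, matched none of these windows. A match of letters is a description of the sequence, not a measured binding site.

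Levels are on the log2 scale after quantile normalization, which gives every array the same distribution of values. Levels of different probe sets cannot be compared, because probes differ in brightness. Of the 7 genes, 6 passed the filter on dim probe sets and were tested among 13279 genes in limma. Gatm, with a mean level of 4.06 under the filter's 4.35, was fitted only among all 45037 probe sets that are not controls. Called means that the p-value, adjusted by Benjamini and Hochberg's method over every gene (or every probe set) of the comparison, was under 0.05.

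Some measures differed between the samples as a whole. Median deposited levels of the arrays ran from 4.31 to 5.33 before normalization. Gata4 itself, by its brighter probe set, ran from 7.93 to 8.29 in wild-type sham, 7.43 to 8.15 in wild-type TAC, 7.70 to 7.93 in G4D sham and 7.64 to 8.14 in G4D TAC, and it was called in no comparison (limma adjusted p = 0.125 to 0.611). Whether its probes lie inside the deleted stretch was not tested, so these levels do not check the genotype labels. All 12 listed myocyte markers were detected, with mean marker levels between 12.35 and 12.49 on every array. None of the 12 was called with TAC in wild-type hearts. In G4D hearts 2 fell, where 9.32% of all genes were called lower. They were Tnni3 (−0.21 ± 0.07, limma adjusted p = 0.0319) and Pln (−0.2 ± 0.07, adjusted p = 0.0468). Marker levels of fibroblasts were between 8.49 and 9.34 in the sham arrays and between 9.20 and 10.39 in the TAC arrays, and 6 of 10 such markers rose with TAC in each genotype. Of 10 macrophage and myeloid markers, 7 rose in wild-type and 8 in G4D hearts. Among all tested genes, 5.19% were called higher with TAC in wild-type and 13.2% in G4D hearts. G4D sham replicate 5 stood apart in its atrial markers, with a mean level of 10.7 against a highest wild-type sham value of 7.55. It was also the highest sham array for 3 tested adipocyte markers, at 9.27 against a highest wild-type sham value of 7.39. For fibroblast markers it gave the upper end of the sham range, 9.34, against a highest wild-type sham value of 8.67. The 3′ to 5′ difference of the beta-actin control probes, a measure of RNA quality, was 0.437 to 0.667 in wild-type sham and 0.113 to 0.408 in wild-type TAC. It was 0.385 to 0.628 in G4D sham and 0.193 to 0.379 in G4D TAC, so sham and TAC arrays did not overlap in either genotype. The same difference for the Gapdh control probes did overlap: −0.326 to 0.111 and −0.303 to −0.0643 in wild-type sham and TAC, and −0.418 to −0.226 and −0.315 to −0.0107 in G4D sham and TAC. Its G4D mean went from −0.33 to −0.18, the opposite direction to beta-actin. The part of these differences in the results below was not tested.

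With aortic constriction the brain-type subunit Ckb rose 1.56-fold in G4D hearts, while no change was called for the muscle-type enzymes Ckm and Ckmt2 in either genotype. Ak1 fell in G4D hearts on the quantile-normalized scale, but this call was lost with values as deposited (−0.02, adjusted p = 0.951) and with median centring (−0.23, adjusted p = 0.384), and its second probe set did not show it. In wild-type hearts none of the 6 tested members was called, at an unadjusted p under 0.05 either, where 7.35% of all tested genes were called by limma (976 genes, or 2642 at an unadjusted p under 0.05). In G4D hearts 2 of 6 were called, Ckb higher and Ak1 lower, where 22.5% of all tested genes were called, 13.2% higher and 9.32% lower. The members' median change was 0 in wild-type and 0.10 in G4D hearts, and that of all genes was −0.02 in both. In sham hearts none of the 6 differed between genotypes, also at an unadjusted p under 0.05 (0.0527% of all genes called by limma, 7 genes, or 1074 unadjusted). After TAC, 1 of 6 was higher in G4D than in wild-type hearts, again Ckb (3.36% of all genes called, 2.10% higher). The count of members is too small to set it apart from these shares.

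**Figure D1:**
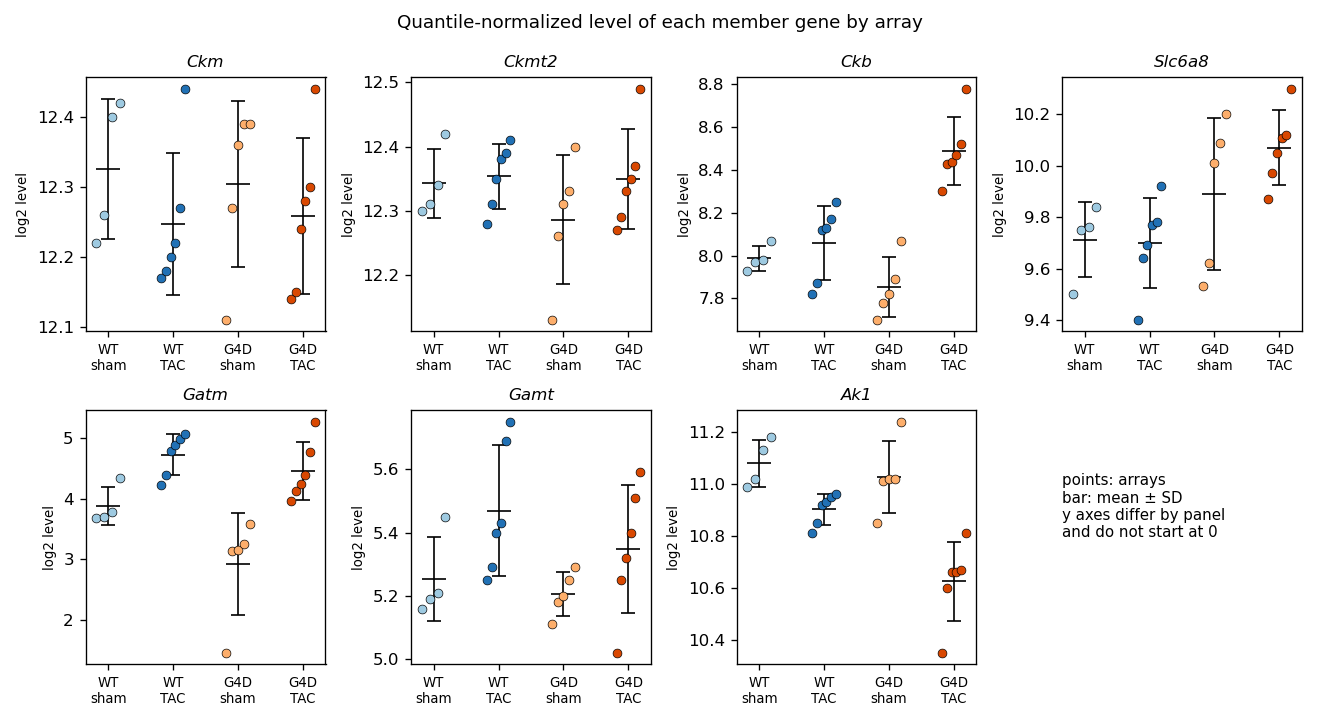
Level (log2, quantile normalized) of the brightest probe set of each gene on each array in the 4 groups, with the mean and SD as bars and a separate scale in each panel that does not start at 0. All 6 G4D TAC arrays lie above every other array for Ckb, and the Ckm and Ckmt2 points of the 4 groups overlap.

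Ckm, the muscle subunit, had levels of 12.22, 12.26, 12.40 and 12.42 in wild-type sham hearts. After TAC the wild-type arrays had a lowest level of 12.17, a median of 12.21 and a highest of 12.44. The G4D sham arrays were at 12.11, 12.27, 12.36, 12.39 and 12.39, and the G4D TAC arrays ran from 12.14 through a median of 12.26 to 12.44. All 4 groups overlapped. The change with TAC was −0.08 ± 0.08 (SE) in wild-type hearts, with a 95% interval of −0.25 to 0.09 (limma adjusted p = 0.663). In G4D hearts it was −0.05 ± 0.08, with an interval of −0.21 to 0.11 (limma adjusted p = 0.708). With values as deposited the wild-type value was −0.29 and with median centring −0.22 (adjusted p = 0.977 and 0.668). This probe set lies at the 99.9th percentile of brightness, and whether it is close to the ceiling of the arrays was not tested, so the intervals set no bound on the Ckm transcript. After TAC the genotypes differed by 0.01 ± 0.07 (limma adjusted p = 0.984). A dimmer Ckm probe set gave group means of 7.28 in wild-type sham, 6.97 in wild-type TAC, 7.20 in G4D sham and 7.0 in G4D TAC. Its TAC changes, −0.32 ± 0.20 and −0.20 ± 0.19, did not pass the test among all probe sets (limma adjusted p = 0.619 and 0.603).

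Ckmt2, the mitochondrial enzyme of heart and skeletal muscle, varied little on the quantile-normalized scale. Its wild-type sham arrays were at 12.30, 12.31, 12.34 and 12.42, and the wild-type TAC arrays ran from 12.28 through 12.37 to 12.41. The G4D sham arrays were at 12.13, 12.26, 12.31, 12.33 and 12.40, and the G4D TAC arrays ran from 12.27 through 12.34 to 12.49. The groups overlapped throughout, with means between 12.29 and 12.35. The difference between TAC and sham was 0.01 ± 0.07 in wild-type hearts, with a 95% interval of −0.13 to 0.15, and 0.06 ± 0.06 in G4D hearts, with an interval of −0.07 to 0.19. Neither passed the test (limma adjusted p = 0.952 and 0.502), nor did the difference between genotypes after TAC, 0 ± 0.06 with an interval of −0.13 to 0.12 (limma adjusted p = 0.996).

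Ckb, the brain subunit, was at 7.93, 7.97, 7.98 and 8.07 in wild-type sham hearts. In wild-type TAC hearts it had a lowest level of 7.82, a median of 8.12 and a highest of 8.25. The G4D sham arrays were at 7.70, 7.78, 7.82, 7.89 and 8.07. In G4D TAC hearts the levels ran from 8.30 through a median of 8.46 to 8.78, so that every G4D TAC array lay above every other array of the study. Group means were 7.99 ± 0.06 (SD), 8.06 ± 0.17, 7.85 ± 0.14 and 8.49 ± 0.16 in the same order. With TAC the level rose by 0.64 ± 0.09 (SE) in G4D hearts, a fold of 1.56 with a 95% interval of 0.44 to 0.83 on the log2 scale (limma adjusted p = 5.47e-05). The rise was 1.06 with values as deposited (adjusted p = 0.000663) and 0.86 with median centring (adjusted p = 7.31e-05), and 0.76 relative to the median of all genes in both. Groups did not overlap in this direction for 6.73% of all genes. In wild-type hearts the change was 0.07 ± 0.10, with an interval of −0.13 to 0.28 (limma adjusted p = 0.753).

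After TAC, Ckb was 0.43 ± 0.09 higher in G4D than in wild-type hearts, a fold of 1.35 with a 95% interval of 0.24 to 0.62 (limma adjusted p = 0.00878). Groups did not overlap in this direction for 1.75% of all genes. This call was lost with values as deposited (0.61, adjusted p = 0.277) and with median centring (0.49, adjusted p = 0.0578), where the estimate was larger and so was the spread. In sham hearts the difference was −0.14 ± 0.10 (limma adjusted p = 0.812). The TAC effect in G4D hearts exceeded that in wild-type hearts by 0.57 ± 0.14, with an interval of 0.28 to 0.85. This interaction had an unadjusted p of 0.000476 in limma but did not pass over all genes (adjusted p = 0.169, from 0.092 to 0.352 over the alternatives). Of all genes, 0.0151% (2 genes) were called in that comparison by limma, and 1110 at an unadjusted p under 0.05. Ckb was the only member under that unadjusted threshold. The difference between the genotypes' responses therefore rests on an estimate that fails the correction.

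Ckb is known in cells other than myocytes, so markers of those cells are given beside it. The mean level of 9 tested smooth muscle and pericyte markers was 8.44 to 8.66 in wild-type sham, 8.51 to 8.80 in wild-type TAC, 8.33 to 8.89 in G4D sham and 8.56 to 9.07 in G4D TAC arrays. Their summed level, on the log2 scale, was 12.71 to 12.89, 12.63 to 12.97, 12.71 to 13.06 and 13.06 to 13.25 in the same order. The G4D TAC arrays were thus at or above all others in the sum. It adds unlogged values, so the brightest probe sets weigh most in it. Among these, group means in wild-type TAC and G4D TAC were 11.02 and 11.69 for Des, 9.93 and 10.74 for Acta2 and 11.34 and 11.41 for Rgs5. Of the 9, 2 rose with TAC in G4D hearts, where 13.2% of all genes were called higher, while Cnn1 was too dim to be tested. Between genotypes after TAC, 3 were higher in G4D than in wild-type hearts, where 2.1% of all genes were called higher. The median of the 9 was 0.02 in that comparison. The 3 were Acta2 (0.81 ± 0.20, limma adjusted p = 0.0251), a smooth muscle actin that is also made in fetal myocytes, Des (0.67 ± 0.09, adjusted p = 0.000256), the desmin of every muscle type, and Cspg4 (0.66 ± 0.12, adjusted p = 0.00376), a pericyte proteoglycan. The other 6 were not called, with values of −0.24 for Smtn, −0.20 for Kcnj8, −0.16 for Myh11, −0.03 for Pdgfrb, 0.02 for Tagln and 0.07 for Rgs5. In sham hearts Acta2 had a genotype difference of the same size, 0.84 ± 0.23, that was not called (adjusted p = 0.242). Endothelial markers, all 10 tested, had mean levels of 8.06 to 8.44 in sham and 8.21 to 8.68 in TAC arrays, and none differed between the genotypes after TAC. With TAC, 3 of the 10 rose in wild-type and 2 in G4D hearts, where 5.19% and 13.2% of all genes were called higher. The median of the 10 was 0.09 in both genotypes. The 2 in G4D hearts were Cd34 (0.82 ± 0.10, limma adjusted p = 9.5e-06) and Icam2 (0.45 ± 0.12, adjusted p = 0.00902). Of 8 nerve and Schwann cell markers 5 were tested, with mean levels of 4.90 to 5.31 in the other groups and 5.22 to 5.59 in G4D TAC. Of these 5, 1 gene, Uchl1, was higher in G4D than in wild-type hearts after TAC (1.16 ± 0.18, limma adjusted p = 0.000838). The median of the 5 was −0.08, and the other 4 ran from −0.17 to −0.05 with no call. Fibroblast markers in the 2 TAC groups ran from 9.20 to 10.09 in wild-type and 9.55 to 10.39 in G4D arrays. Of these 10 markers, 1 was higher in G4D than in wild-type hearts after TAC, Mfap4 (1.29 ± 0.32, limma adjusted p = 0.0297). The others ran from 0 for Dpt to 0.92 for Postn (adjusted p = 0.0701) with no call. The median of the 10 was 0.3, beside −0.01 for all genes. The part of these cells in the Ckb values was not tested. In such bulk RNA, more cells of a type and more RNA per cell cannot be told apart.

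Within each array, the Ckb probe set moved apart from those of Ckm and Ckmt2 in G4D hearts. Both of the latter are at the 99.9th percentile of brightness, and what part a ceiling of the arrays has in their small differences was not tested. The log2 difference of Ckb from Ckm lay between −4.57 and −4.32 in G4D sham and between −3.98 and −3.51 in G4D TAC arrays. The groups did not overlap, and the mean difference moved by 0.69 (exact permutation test, two-sided, p = 0.00433, adjusted over 12 such tests p = 0.013). In the wild type it lay between −4.46 and −4.15 in sham and between −4.35 and −4.02 in TAC arrays, which overlapped. The means differed there by 0.15 (exact permutation p = 0.171, adjusted p = 0.342). With the mean of the probe sets of a gene, which brings in the dimmer Ckm probe set, this wild-type difference was 0.27 and passed (exact permutation, adjusted p = 0.0259), beside 0.76 in G4D hearts (adjusted p = 0.0173). After TAC it was 0.42 higher in G4D than in wild-type arrays, again without overlap (exact permutation p = 0.00216, adjusted p = 0.013).

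Against Ckmt2, Ckb moved by 0.58 with TAC in G4D hearts (exact permutation p = 0.00433, adjusted p = 0.013), and the wild-type means differed by 0.06 (exact permutation p = 0.59, adjusted p = 0.708). After TAC it was 0.43 higher in G4D arrays, with groups that overlapped (exact permutation p = 0.00433, adjusted p = 0.013). Ckmt2 and Ckm did not separate in any of the 4 comparisons, with differences of means from −0.03 to 0.11 and exact permutation p-values from 0.171 to 0.831 (adjusted p = 0.342 to 0.831). Because these differences are taken within an array, a constant added to all log2 values of that array leaves them as they are. They show unequal change of probe sets and not the relative amount of the subunits.

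**Figure D2:**
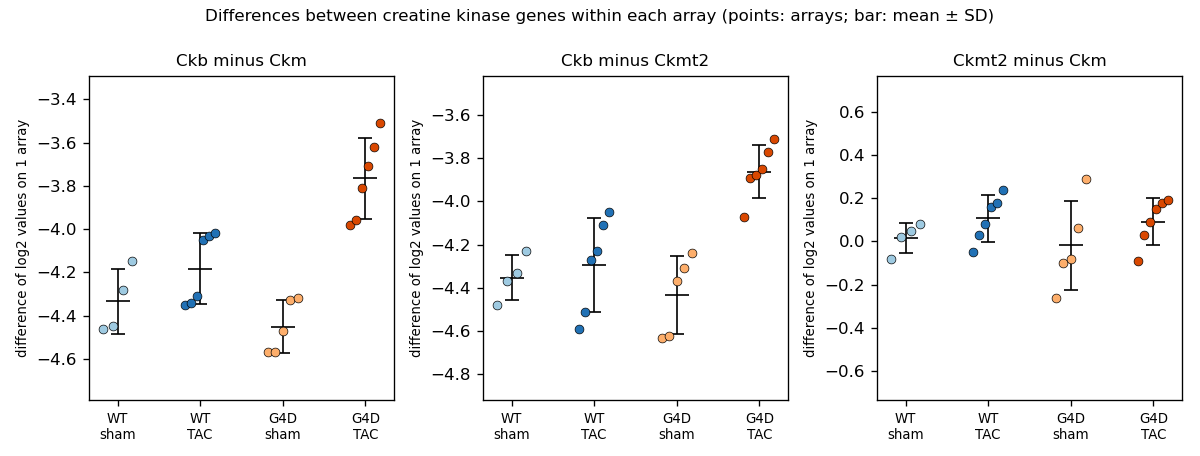
Difference of log2 levels between 2 creatine kinase genes on each array in the 4 groups, with the mean and SD as bars; a shift between groups shows unequal change, and the height itself depends on the probes. Ckb less Ckm lies between −3.98 and −3.51 in G4D TAC arrays, above all other groups, and Ckmt2 less Ckm overlaps in all 4 groups.

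Slc6a8, the creatine transporter of the plasma membrane, was at 9.50, 9.75, 9.76 and 9.84 in wild-type sham hearts. The wild-type TAC arrays ran from 9.40 through 9.73 to 9.92. The G4D sham arrays fell apart into 9.53 and 9.62 at the low end and 10.01, 10.09 and 10.20 at the high end, and the G4D TAC arrays ran from 9.87 through 10.08 to 10.30. All G4D TAC arrays but the lowest lay above the wild-type TAC arrays. TAC differed from sham by −0.01 ± 0.13 in wild-type hearts (limma adjusted p = 0.986) and by 0.18 ± 0.12 in G4D hearts, with a 95% interval of −0.07 to 0.43 (limma adjusted p = 0.313). The latter became a call with values as deposited (0.62, adjusted p = 0.0411) and with median centring (0.41, adjusted p = 0.0457). After TAC the genotypes differed by 0.37 ± 0.11, with an interval of 0.13 to 0.60, which did not pass over all genes (limma adjusted p = 0.093). The dimmer probe set gave 0.35 ± 0.17 for that difference (limma adjusted p = 0.626 among all probe sets), with group means of 8.17, 8.19, 8.47 and 8.54 in wild-type sham, wild-type TAC, G4D sham and G4D TAC.

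Gatm, which makes the creatine precursor guanidinoacetate from arginine and glycine, was dim. Its levels were 3.69, 3.70, 3.78 and 4.35 in wild-type sham and 4.23, 4.83 and 5.07 as lowest, median and highest in wild-type TAC hearts. In G4D sham hearts they were 1.46, 3.14, 3.16, 3.26 and 3.59, and in G4D TAC hearts 3.97, 4.32 and 5.27 as lowest, median and highest. The G4D groups did not overlap, and the wild-type groups did. Among the 13279 tested genes, which leave out Gatm, G4D groups did not overlap in this direction for 6.73%. That share was not counted over all probe sets, so it does not show how unusual the separation is for a dim one. In the fit of all probe sets, of which 8.97% were called, the level rose by 1.54 ± 0.31 with TAC in G4D hearts (limma adjusted p = 0.00313). Without G4D sham replicate 3, the array at 1.46, the rise was 1.18 ± 0.23 (adjusted p = 0.00359). In wild-type hearts, where 2.02% of probe sets were called, the change was 0.85 ± 0.33 (limma adjusted p = 0.266). The interaction was 0.69 ± 0.45 (limma adjusted p = 0.918, with 0.00222% of probe sets called), so no difference between the genotypes' responses was established. In sham hearts G4D was −0.96 ± 0.34 from the wild type (limma adjusted p = 0.769, 0.00444% called), and after TAC −0.26 ± 0.29 (adjusted p = 0.935, 0.853% called). The standard error of its TAC effect in G4D hearts, 0.31, exceeded that of Ckb in the same fit of all probe sets, 0.1.

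Gamt, the methyltransferase that finishes creatine, was also low. The wild-type sham arrays were at 5.16, 5.19, 5.21 and 5.45, and wild-type TAC arrays ran from 5.25 through 5.42 to 5.75. G4D sham arrays were at 5.11, 5.18, 5.20, 5.25 and 5.29, and G4D TAC arrays ran from 5.02 through 5.36 to 5.59. The groups overlapped in each comparison. The changes with TAC, 0.22 ± 0.11 in wild-type and 0.14 ± 0.11 in G4D hearts, did not pass the test (limma adjusted p = 0.293 and 0.367), nor did the difference of −0.12 ± 0.10 after TAC (adjusted p = 0.717).

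Ak1, the cytosolic adenylate kinase of muscle, stood at 10.99, 11.02, 11.13 and 11.18 in wild-type sham hearts. In wild-type TAC hearts it ran from 10.81 through 10.93 to 10.96, just under every sham array. The G4D sham arrays were at 10.85, 11.01, 11.02, 11.02 and 11.24, and the G4D TAC arrays ran from 10.35 through 10.66 to 10.81. The level fell with TAC in G4D hearts by 0.40 ± 0.08, 1.32-fold, with a 95% interval of −0.57 to −0.24 (limma adjusted p = 0.00107), and these groups did not overlap. Groups did not overlap in this direction for 3.38% of all genes. In wild-type hearts the change was −0.17 ± 0.09, with an interval of −0.35 to 0.01 (limma adjusted p = 0.27), although these groups did not overlap either, as for 4.12% of all genes in this direction.

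The Ak1 fall depended on the scaling. With values as deposited and with median centring, where it was not called, the median of all genes moved by 0.31 and 0.10 in this comparison, and Ak1 lay −0.33 from that median in both. Between genotypes after TAC, Ak1 differed by −0.28 ± 0.08, with an interval of −0.44 to −0.12, which just missed the threshold (limma adjusted p = 0.0509). The interaction, −0.23 ± 0.12, did not pass (adjusted p = 0.632). A dimmer Ak1 probe set, with group means from 6.11 to 6.25, gave −0.13 ± 0.15 for TAC in G4D hearts (limma adjusted p = 0.688 among all probe sets) and so did not show the fall. The mean of both probe sets gave −0.26 (adjusted p = 0.0397).

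Without G4D sham replicate 5, the array with high atrial markers, the TAC changes in G4D hearts were 0.60 for Ckb (adjusted p = 0.000237), −0.45 for Ak1 (adjusted p = 7e-04) and 1.59 for Gatm (adjusted p = 0.00553). These 3 calls were thus also made without that array. The Slc6a8 change was 0.09 without it (adjusted p = 0.631).

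**Figure D3:**
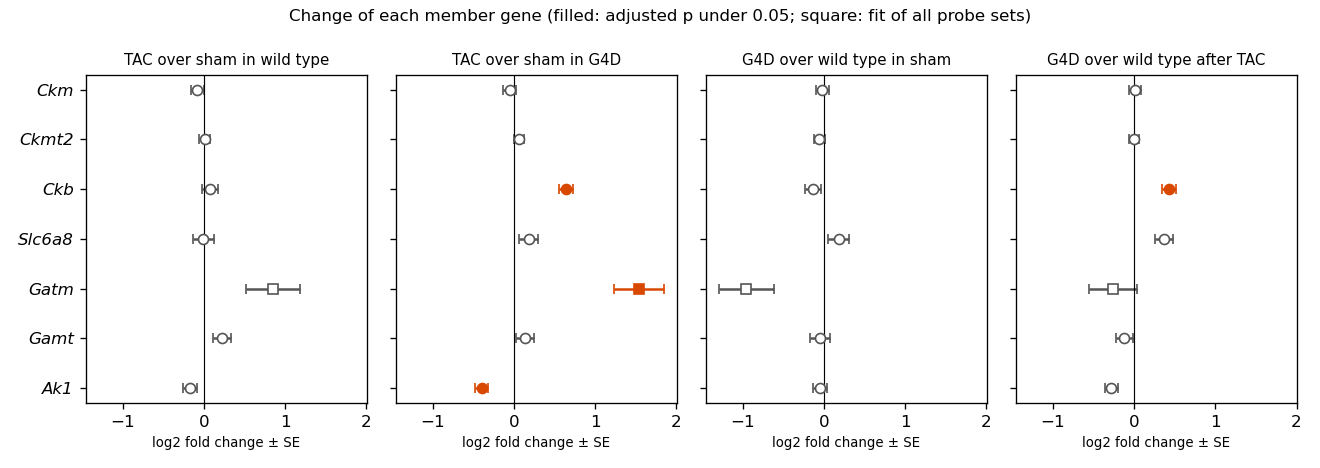
Log2 fold change with its SE for each gene in 4 comparisons, where filled symbols passed an adjusted p of 0.05 and squares mark Gatm, fitted among all probe sets. Ckb, Gatm and Ak1 are filled for TAC in G4D hearts, Ckb alone for G4D over wild type after TAC, and none in the other panels.

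Genes around the phosphotransfer system were taken from lists of 52 genes, 43 of them tested. In wild-type hearts 1 rose and 3 fell with TAC, where 7.35% of all genes were called, 5.19% higher and 2.16% lower. In G4D hearts 5 rose and 7 fell, where 22.5% were called, 13.2% higher and 9.32% lower. Whether the counts in either direction exceed these shares was not tested. The median changes of the 43 genes were −0.09 and −0.07. After TAC, 2 were higher and 2 lower in G4D than in wild-type hearts, where 2.10% of all genes were called higher and 1.26% lower. Whether this count exceeds those shares was not tested. In sham hearts none differed, where 0.0527% of all genes were called. The split by direction depended on the scaling. With values as deposited 7 rose and none fell in G4D hearts, and with median centring 6 rose and none fell, so a fall named below is relative to the rest of the array. In wild-type hearts none was called with values as deposited and 1, Ak4, with median centring. After TAC, 1 was called with values as deposited, Prkab2, and 3 with median centring, Prkab2, Ak4 and Cmpk2.

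Of 13 tested kinases that move phosphate between nucleotides, 2 rose and none fell with TAC in G4D hearts, against 13.2% and 9.32% of all genes, which is no result about the list. Nme1, a nucleoside diphosphate kinase, rose by 0.81 ± 0.15 (limma adjusted p = 0.000393), and Cmpk1, the kinase of CMP and UMP, by 0.27 ± 0.08 (adjusted p = 0.0219). Both rises were also called with values as deposited and with median centring. In wild-type hearts Nme7 rose by 0.41 ± 0.12 (limma adjusted p = 0.0415), and Ak4, an adenylate kinase of the mitochondrial matrix, fell by 0.54 ± 0.12 (adjusted p = 0.00692). Ak4 was 0.50 ± 0.11 higher in G4D than in wild-type hearts after TAC (adjusted p = 0.0104), and Cmpk2, an interferon-induced mitochondrial kinase, was −0.70 ± 0.17 from the wild type (adjusted p = 0.0234). Ckmt1, the mitochondrial creatine kinase of other tissues, had a TAC value of 0.09 in G4D hearts that did not pass (adjusted p = 0.82).

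Among 10 tested genes of AMP handling and the AMP-activated kinase, 2 rose and 3 fell with TAC in G4D hearts, beside the same shares of all genes. The AMP deaminase Ampd2 rose by 0.76 ± 0.15 (limma adjusted p = 0.000948). The kinase's beta subunits moved in opposite directions: Prkab2, the form common in muscle, rose by 0.57 ± 0.11 (adjusted p = 0.00103), and Prkab1 fell by 0.59 ± 0.11 (adjusted p = 0.000393). Prkag1, a gamma subunit, fell by 0.42 ± 0.09 (adjusted p = 0.00251). The remaining call, named after its value was seen, was adenosine kinase, Adk, which fell by 0.32 ± 0.10 (adjusted p = 0.0277). Prkab1 also fell in wild-type hearts, by 0.49 ± 0.11 (adjusted p = 0.011). After TAC, Prkab2 was 0.77 ± 0.11 higher in G4D than in wild-type hearts (adjusted p = 0.00037), and Prkab1 stood −0.41 ± 0.10 from the wild type (adjusted p = 0.0268). Relative to the median of all genes, the rises of Nme1, Cmpk1, Ampd2 and Prkab2 and the falls of Prkab1, Prkag1 and Adk kept their direction in G4D hearts under the 3 scalings.

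None of 6 genes for transport of ATP, ADP and phosphate across the mitochondrial membranes was called in any comparison. Of all genes, 7.35% were called with TAC in wild-type and 22.5% in G4D hearts, so this count is no result about the list. Slc25a4, the ATP exporter of heart mitochondria beside which Ckmt2 works, had TAC values of 0 ± 0.06 in wild-type hearts (limma adjusted p = 0.977) and −0.01 ± 0.05 in G4D hearts (adjusted p = 0.957). The porin Vdac1 had the largest value of the 6 in G4D hearts, −0.21 ± 0.09 (adjusted p = 0.0887). Of 2 tested genes of the methyl donor cycle, which supplies Gamt, Mat2b fell by 0.42 ± 0.09 in G4D hearts (adjusted p = 0.00205), and Ahcy just missed the threshold at 0.23 ± 0.08 (adjusted p = 0.0506). Of 3 tested M-band genes, whose proteins lie where muscle creatine kinase is anchored, Myom1 rose by 0.24 ± 0.07 (adjusted p = 0.0214) and Myom2 fell by 0.28 ± 0.09 (adjusted p = 0.0338). Of 9 tested transcription regulators of muscle energy genes, 2 fell and none rose in G4D hearts, where 22.5% of all genes were called. They were the estrogen-related receptors Esrrg, by 0.50 ± 0.08 (adjusted p = 0.000201), and Esrra, by 0.31 ± 0.09 (adjusted p = 0.0135). Esrra also fell in wild-type hearts, by 0.32 ± 0.09 (adjusted p = 0.0381). The rise of Myom1 and the falls of Mat2b, Myom2, Esrra, Esrrg, Prkab1, Prkag1 and Adk in G4D hearts were not called with values as deposited or median centring. Rises of the regulators Mef2c and Srf were called there instead. With values as deposited both were 0.70 (adjusted p = 0.0292 and 0.0386), and Ahcy was called too (0.64, adjusted p = 0.03). With median centring Mef2c was 0.50 and Srf 0.49 (adjusted p = 0.0312 and 0.047). On the quantile-normalized scale they were 0.28 and 0.30 (adjusted p = 0.0541 and 0.0745).

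**Figure D4:**
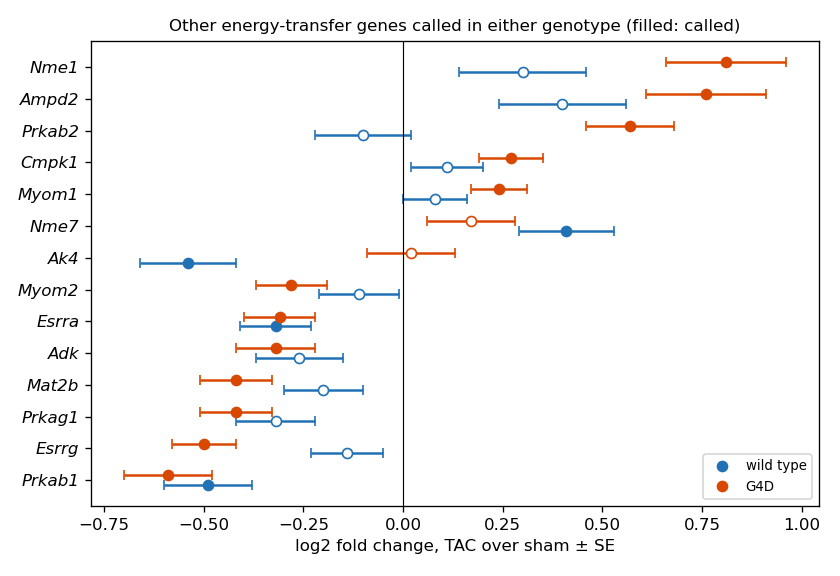
Log2 fold change with TAC, with its SE, in wild-type (blue) and G4D (orange) hearts for the 14 listed genes called in either genotype, filled where called. Nme1, Ampd2 and Prkab2 rose and Prkab1 and Esrrg fell most in G4D hearts, on the quantile-normalized scale.

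The genes whose levels followed each member most closely over the 21 arrays differed between the creatine kinases. For Ckb the Pearson correlation was 0.95 with Fez2, 0.911 with the calponin Cnn2 and 0.90 with the filamin Flnc, and for deviations from group means it was 0.80, 0.65 and 0.60. For Ckm it was 0.855 with Ncan, 0.743 with Sgta and 0.717 with Tnxb, and for Ckmt2 0.788 with Rnpep, 0.787 with Tmub2 and 0.765 with Gmppb. For Ak1 it was 0.931 with Acaa2 and 0.93 with Eci1, both enzymes of fatty acid breakdown, and 0.93 with Cmss1. Within groups those 3 correlations were 0.71, 0.72 and 0.77. For Slc6a8 it was 0.843 with Bdh1, an enzyme of ketone metabolism, 0.838 with Kcmf1 and 0.831 with Ugp2. For Gamt the highest values were lower, 0.712 with Rad9a, 0.71 with Slc25a18 and 0.704 with Btd. These correlations describe arrays that share their groups and their normalization.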

How the data were processed

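The authors deposited 1 value per probe set and array, computed with PLIER, which sums up the probes of a set, per the submitters' processing notes. Its version, the background correction and any normalization are not given in the sources used here. The deposited values were taken as log2, from their range of −13.5 to 15.1. Groups came from the sample titles. The 45037 probe sets that are not controls were quantile normalized between the 21 arrays. Symbols came from the platform annotation. Probe sets with exactly 1 symbol (34945) and a mean at or above the 40th percentile (4.35) were kept, and the brightest stood for its gene. Group means were fitted in limma 3.58.1 (R 4.3.3) with 17 residual degrees of freedom. The 5 comparisons were TAC over sham in each genotype, G4D over wild type in sham and after TAC, and the interaction. Adjusted p-values are Benjamini-Hochberg, two-sided, from limma unless an exact permutation test (scipy 1.17.1) is named. The fitting code was tested on simulated data. The members and lists were chosen with earlier results of these data known. All 7 members were named, with called genes of each list (at most 4 by size in a comparison, else the largest value) and the 3 tested genes most correlated with each member. The number of arrays limits the precision. Alternatives were other scalings, filters, probe-set rules and priors, array weights, a replicate block, fewer groups in the fit and each replicate left out. Quantile normalization with the controls was added after the data were seen.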

Additional observations from a re-analysis of the deposited data

Results flagged for a closer look

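Within single groups, 28 sets of member levels were tested for an array far from the others by Dixon's gap over the range, and 3 passed its 95% critical value, a test that by chance alone marks about 1 group in 20. The Gamt level of wild-type sham replicate 4 was 5.45 against 5.21 for the nearest array, a gap of 0.85 of the range against a critical value of 0.829. The Gatm level of G4D sham replicate 3 was 1.46 against 3.14 for the nearest array, a gap of 0.788 against 0.71. The Gatm level of wild-type sham replicate 2 was 4.35 against 3.78, a gap of 0.862 against 0.829. Both genes are dim on these arrays.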

How the results depend on the processing

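The count of members called for G4D over wild type after TAC, 1 in the report, was 0 with values as deposited and with median centring, 2 with the stricter filter (60th percentile), array weights, a trended robust prior or quantile normalization that included the controls, and 1 to 2 with an array left out. The second gene was Ak1: −0.28 with the stricter filter (adjusted p = 0.0342), −0.30 with array weights (0.00846), −0.28 with the trended prior (0.0203), −0.28 with the controls (0.0491) and −0.32 without G4D TAC replicate 4 (0.0194). The count for TAC in G4D hearts was 2 in every alternative but the one with no filter, where Gatm made it 3. With values as deposited or median centring its members were Ckb and Slc6a8 in place of Ckb and Ak1. Ckb kept its call there in every alternative, from 0.58 to 0.69 with an array left out and up to 1.06 with values as deposited. The counts for TAC in wild-type hearts, for sham hearts and for the interaction were 0 in every alternative. The difference of Ckb from Ckm in wild-type hearts passed with the mean of probe sets (0.27, exact permutation adjusted p = 0.0259). No member reversed a call. Same-numbered samples correlated from −0.359 to 0.353 in their deviations, so the numbers were not taken as pairs. With the replicate block 2 members were called for TAC in G4D hearts and 1 after TAC, Ckb with a TAC change of 0.66 (adjusted p = 0.000459). Dim probe sets limit Gatm and Gamt.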
